A study of Homo sapiens with 8 samples.

Results

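Across the human autosomes, 1075 regions were open in all 8 libraries of the study and stood alone, with no other such region within 200 kb on either side. They were chosen in 3 steps from the deposited ATAC-seq peak lists. Peaks on chromosomes 1 to 22 that shared at least 1 bp were merged into 78629 regions, of which 12485 (15.9%) held a peak from every library. Those under 2000 bp wide whose gaps to the neighbouring regions of that kind both passed 200 kb were kept, which is 8.61% of the 12485 regions and 1.37% of all merged regions. The remaining 11302 regions under 2000 bp that were open in all 8 libraries are called the other shared regions here. Presence of a peak and the spacing of peaks chose the isolated regions, so neither is a finding.

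The study compared oral squamous cell carcinoma cells that survive radiation well with cells that do not. HSC-3, which the labels call radioresistant, and KOSC-2, which they call radiosensitive, were each given 8 Gy or 0 Gy and fast frozen after 24 hours, and 2 libraries were made from each combination. HSC-3 at 8 Gy, HSC-3 at 0 Gy, KOSC-2 at 8 Gy and KOSC-2 at 0 Gy are thus the 4 groups. Each class of radiosensitivity is represented by 1 cell line, so class and line cannot be told apart. Separate cultures are not stated for the replicates, and p-values therefore measure only the spread between these libraries.

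ATAC-seq marks DNA that the Tn5 transposase can reach, which is mostly DNA freed of nucleosomes at promoters, enhancers and insulators. Regions open in many cell types are commonly promoters of widely used genes or sites bound by CTCF, a zinc finger protein that anchors chromatin loops, whereas enhancers vary more between cell types. Open regions usually lie in clusters along gene-rich DNA, and isolated ones are found in gene-poor stretches or in stretches that are closed in the cells at hand. Genes, sequences and marker loci were not analysed here, because no annotation or genome of build hg19 was used. The regions are named by their hg19 coordinates, counted from 1.

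The lists of chromosomes 1 to 22 held 21955 to 50448 peaks. Both short lists came from HSC-3, with 21955 peaks in 8 Gy replicate 1 and 22860 in 0 Gy replicate 2. Enrichment was also lowest there, with a median fold enrichment of the isolated regions of 7.52 and 8.03, against 10.4 in both remaining HSC-3 libraries. KOSC-2 0 Gy replicate 1 had the lowest enrichment of its line, with a median of 8.75, and the remaining KOSC-2 libraries gave 10.6 to 11.1. The short HSC-3 lists and KOSC-2 0 Gy replicate 1 are the 3 libraries of lowest enrichment. Fold enrichment is the authors' ratio of reads at the summit of a peak to the background of the same library. The reads at each summit and the reads in the 10 kb around it were recovered from the deposited fold and p-value. Where the 10 kb held fewer reads than the library's genome-wide level, that level stands in their place, which was the case for 0.558% to 12.8% of the isolated regions per library, against 0.239% to 4.13% of the other shared regions. In the isolated regions, summits held a median of 20 to 54 reads per library, with a lowest value of 6 to 11 and a highest of 113 to 211 reads.

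Because the lists differ in depth, values were compared as percentiles, the rank of a region in its own library among the 12485 shared regions on a scale of 0 to 100. The fold enrichment and the summit reads rank different things. A region ranks high by fold where the reads of its 10 kb are concentrated at the summit, and high by summit reads where many fragments covered the summit. Fold was the measure planned for the comparisons, and ranking by summit reads was added after the data had been seen.

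The smaller of the gaps on either side of an isolated region had a median of 293 kb (quartiles 237 and 420 kb), against 35.5 kb for the other shared regions. In 189 isolated regions it passed 500 kb and in 48 it passed 1000 kb. Just inside the limit were chr1:53392618-53393783 and chr19:13048721-13049632, with gaps of 200.01 and 200.2 kb. Just outside it were chr16:11038068-11038750 and chr1:160782968-160783500, with gaps of 199.8 and 199.7 kb. By width, chr9:113017649-113019601 and chr12:10364289-10366241, both 1953 bp, were kept, and chr4:78077674-78079675 with 2002 bp and chr11:95522460-95524467 with 2008 bp were not. There were 8 isolated regions of 2000 bp or more left out in this way.

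The most remote region, chr18:38448032-38448810, had no other shared region for 4039 kb on its left and 4924 kb on its right. Its summit held 23 and 76 reads at the extremes of the 8 libraries, and its summits lay within 39 bp of each other. By summit reads it stood at percentiles of 33.2, 36.9, 35.1 and 59.2 in HSC-3 (the irradiated pair of replicates first, then the unirradiated pair). In the KOSC-2 libraries, in the same order, it stood at 66.7, 67.8, 29.96 and 72.6. Thus 3 of 4 KOSC-2 libraries lay above all 4 HSC-3 libraries and the fourth, 0 Gy replicate 1, below them. The next most remote were chr4:30952328-30953001 with 3230 kb on its nearer side, chr1:104067769-104069162 with 2576 kb, chr4:132505281-132506197 with 2490 kb and chr6:68055807-68056562 with 2449 kb. Their mean percentiles by summit reads were 41.8, 50.4, 35.4 and 8.9, so remoteness went with no single level.

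Chromosome 18 had the largest share of isolated regions among its shared regions, 33 of 163 (20.2%). It was followed by chromosome 21 with 14.3%, chromosome 6 with 13.1%, chromosome 15 with 12.9% and chromosome 4 with 12.8%. The lowest shares were 4.58% on chromosome 19, 4.65% on chromosome 14 and 4.76% on chromosome 20. Chromosome 19 is the most gene-dense human chromosome and chromosomes 4 and 18 are gene-poor, which is background and not a measurement of these files.

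Many isolated regions followed each other along a chromosome with no clustered shared region between them. Of the 1075, 475 had a clustered or wide shared region, or the end of the chromosome, on both sides, while 4 rows held 7 isolated regions in succession and 2 rows held 6. The rows of 7 spanned 4.48 Mb on chromosome 4 (chr4:160311754-164788487), 4.15 Mb on chromosome 6 (chr6:44642063-48795520), 4.06 Mb on chromosome 18 (chr18:43753300-47814698) and 2.02 Mb on chromosome 7 (chr7:17979345-19998465). Members of a row differed widely in strength. On chromosome 7 their mean percentiles by fold ran between 16.5 and 92.7, and on chromosome 4 their mean percentiles by summit reads ran between 6.78 and 79.3.

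Isolated regions were slightly narrower than the others, with a median merged width of 905 bp (quartiles 696 and 1155.5 bp), against 954 bp (738 and 1195 bp). Within single libraries the median peak width was 464 to 787 bp in isolated regions and 487 to 829 bp in the other shared regions, narrower in 8 of 8 libraries. The summit positions of the 8 libraries lay within a median of 105 bp of each other (quartiles 68.5 and 172 bp), against 107 bp (68 and 194 bp). Of the isolated regions, 134 (12.5%, against 13.5% of the others) had all 8 summits within 50 bp. A further 149 (13.9%, against 15.9%) had summits spread over more than 300 bp.

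Isolated regions were sharper but not taller than the others. By fold enrichment they stood higher in all 8 libraries, with median percentiles of 61.2 and 58.6 in irradiated HSC-3, 59.1 and 58.2 in unirradiated HSC-3, 58.6 and 55.9 in irradiated KOSC-2 and 59.6 and 57.9 in unirradiated KOSC-2. The other shared regions had medians of 49.0 to 50.0. The difference averaged 9.10 ± 1.76 percentile points (SD over 8 libraries) by fold and −9.91 ± 2.06 points by summit reads, so its sign turned with the measure. By summit reads the medians of the isolated regions were 40.1, 41.6, 39.2 and 43.8 in the HSC-3 libraries and 40.1, 42.8, 37.2 and 40.7 in the KOSC-2 libraries, against 49.3 to 52.2 for the others. These are descriptions without a test, because the regions were chosen from the same lists.

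**Figure D1:**
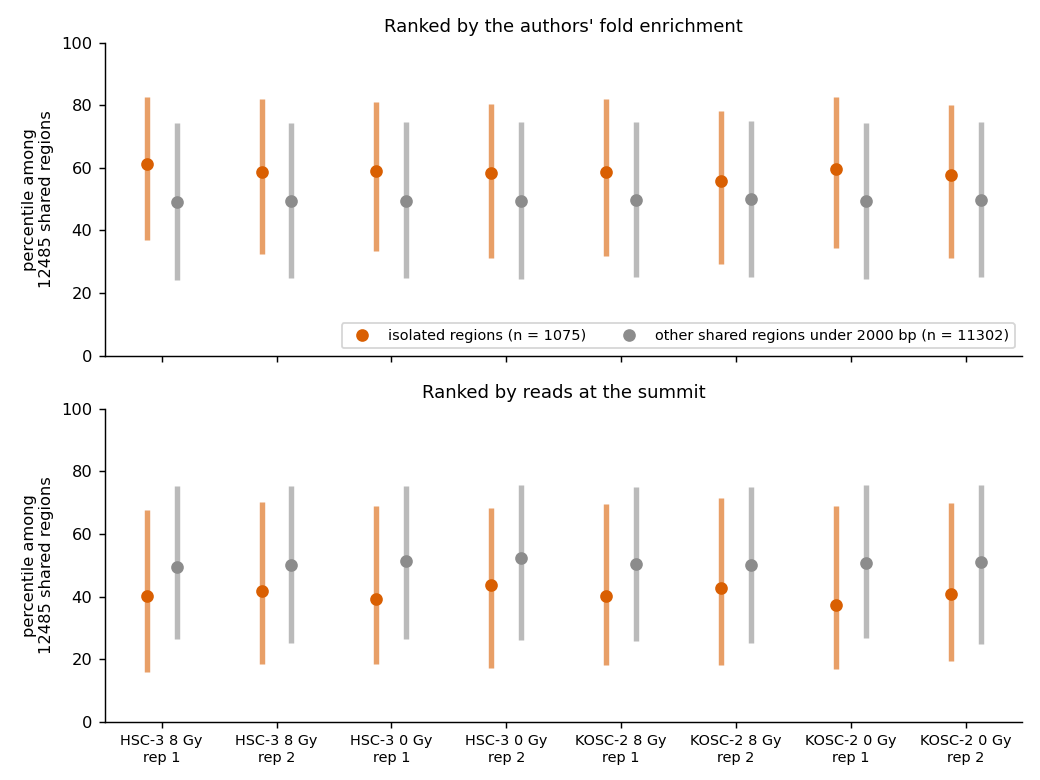
Percentile of the isolated regions (orange) and of the other shared regions under 2000 bp (grey) in each library, by the authors' fold enrichment (top) and by the reads at the summit (bottom). Points are medians and bars run from the first to the third quartile over regions. The orange medians lie above the grey ones in all 8 libraries by fold (55.9 to 61.2) and below them in all 8 by summit reads (37.2 to 43.8).

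The reads around the summit differ in the same direction as the summit reads, and by more. The 10 kb window of an isolated region held a median of 80, 85, 88 and 50 reads in the HSC-3 libraries and 140, 98, 133 and 112 in the KOSC-2 libraries. For the other shared regions these medians were 107, 102, 114 and 65 reads in HSC-3 and 173, 120, 179 and 137 in KOSC-2. Reads at the summit made up a median of 32.3% to 45.3% of the window in isolated regions, against 26.9% to 41.6% in the others. The rule bars a second shared region from the window of an isolated one. Among the other shared regions, 9606 (85.0%) had none within 10 kb either, and their windows held medians of 103, 98, 110 and 63 reads in HSC-3 and 169, 116, 174 and 133 in KOSC-2, above those of the isolated regions in all 8 libraries.

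Strength varied more among isolated regions than between them and the others. By mean percentile over the 8 libraries they ranged between 1.505 and 99.3 by fold and between 2.07 and 99.9 by summit reads. A summit-read percentile above 75 in every library was found in 80 of them (7.44%, against 9.72% of the others), and one below 25 in every library in 70 (6.51%, against 3.95%). By fold, 94 (8.74%, against 5.81%) were above 75 in every library and 20 (1.86%, against 5.10%) were below 25. Narrow regions carried fewer reads than wide ones and ranked higher by fold. The 280 isolated regions of up to 700 bp had a median of 23.6 by summit reads and 56.5 by fold, while the 163 wider than 1300 bp had 63.8 by summit reads and 47.2 by fold. The same order held among the other shared regions, with 32.5 and 49.7 for the narrow ones and 68.5 and 41.3 for the wide ones.

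**Figure D2:**
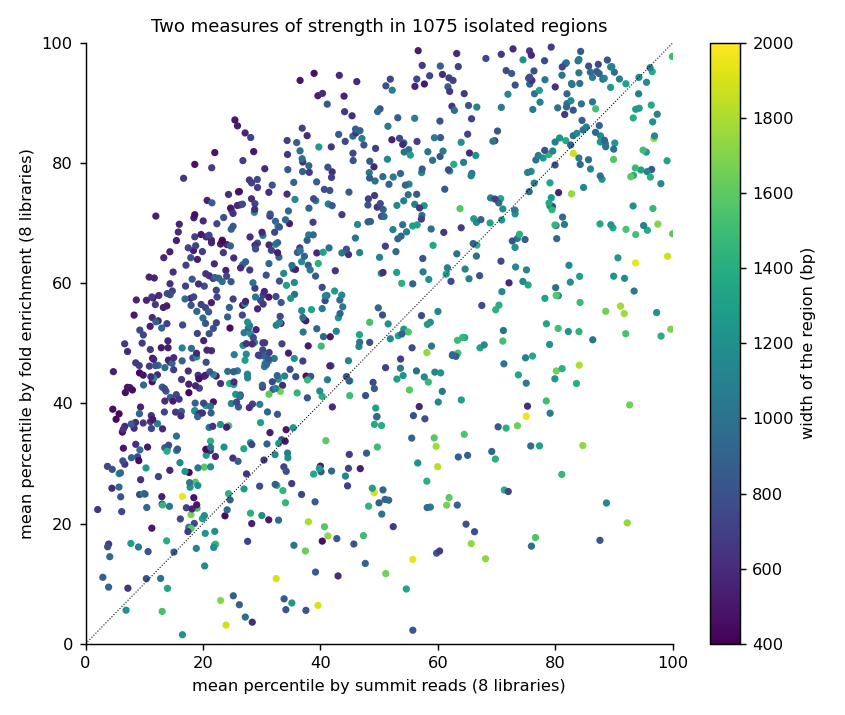
Mean percentile over 8 libraries by summit reads (horizontal) and by fold enrichment (vertical) for each of the 1075 isolated regions, coloured by width in bp. The dotted line marks equal percentiles. Narrow regions (dark) lie mostly above the line and wide ones (yellow and green) mostly below it, with medians (summit reads, then fold) of 23.6 and 56.5 for regions of up to 700 bp and of 63.8 and 47.2 for those over 1300 bp.

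Fold rank was higher in the more remote regions. Its median was 53.2 for the 563 with a smaller gap of up to 300 kb, 58.0 for the 323 up to 500 kb, 59.9 for the 141 up to 1000 kb and 61.9 for the 48 beyond. Summit reads showed no such order, with medians of 38.7, 39.4, 37.0 and 43.0. These medians are across regions and carry no test.

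The sharpest isolated region was chr1:219944263-219944943, at a mean fold percentile of 99.3 ± 0.66 (SD over 8 libraries). Its fold was 13.9 and 18.9 in irradiated HSC-3, 16.04 and 14.2 in unirradiated HSC-3, 17.5 and 16.5 in irradiated KOSC-2 and 14.7 and 18.6 in unirradiated KOSC-2. Its summit held 37, 69, 54 and 44 reads in the HSC-3 libraries and 83, 63, 82 and 89 in the KOSC-2 libraries. It ranked above 98 by fold in every library, although by summit reads its percentile was 67.8 to 92.8. Next came chr2:33500698-33501273 (99.0 ± 1.05), chr7:81314190-81314716 (98.7 ± 1.10), chr12:74436941-74437604 (98.6 ± 1.70) and chr5:143549802-143550647 (98.5 ± 1.13). They were followed by chr4:127771354-127771932 (98.2 ± 3.55), chr5:58489606-58490271 (98.1 ± 2.34) and chr14:58299919-58300496 (97.9 ± 1.65). All 8 were 527 to 846 bp wide, below the median width of the isolated regions.

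The bluntest isolated region was chr4:111117239-111118444, at a mean fold percentile of 1.505 ± 1.46. Its fold was only 3.75 to 5.05 over the 8 libraries, its summit held 17 to 29 reads of 98 to 198 in the 10 kb, and its summits were spread over 468 bp. The region chr19:13262289-13263137 (2.3 ± 2.42) was different in kind. It held 75, 51, 62 and 82 summit reads in the KOSC-2 libraries, percentiles of 52.8 to 81.8, but these lay in windows of 354 to 539 reads. The others at the low end were chr12:125050818-125052704 (3.1 ± 1.51), 1887 bp wide with summits spread over 1483 bp, and chr21:28217449-28218053 (3.6 ± 4.10).

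Isolation from shared regions did not mean isolation from all open chromatin. Within 200 kb of an isolated region lay a median of 9 regions that were open in fewer than 8 libraries (quartiles 6 and 13, highest 39). The nearest of them was a median of 13.8 kb away, and 207 isolated regions had one within 5 kb. In all, 10943 such neighbours were counted, 39.5% of them open in 1 library and 870 (7.95%) in 7. An isolated region had a neighbour open in 7 libraries in 509 cases (47.3%). In 447 of these such a neighbour was absent from one of the short HSC-3 lists. That is common to regions of this kind. Of all 5985 regions open in exactly 7 libraries, 45.0% were missing in HSC-3 8 Gy replicate 1 and 40.2% in HSC-3 0 Gy replicate 2.

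The number of peaks around an isolated region followed the length of the list. It averaged 1.23 and 4.33 in irradiated HSC-3, 4.11 and 1.51 in unirradiated HSC-3, 5.70 and 4.23 in irradiated KOSC-2 and 3.57 and 4.73 in unirradiated KOSC-2. Both short HSC-3 lists were far below the other 6 lists. When every list was cut to its 21955 strongest peaks by p-value, the means around the same regions were 1.23, 1.42, 1.45 and 1.37 in HSC-3 and 1.46, 1.49, 1.504 and 1.47 in KOSC-2. Without both short HSC-3 lists, 501 of the 1075 (46.6%) were still isolated, because more regions then counted as shared. With lists of equal length 751 (69.9%) were.

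**Figure D3:**
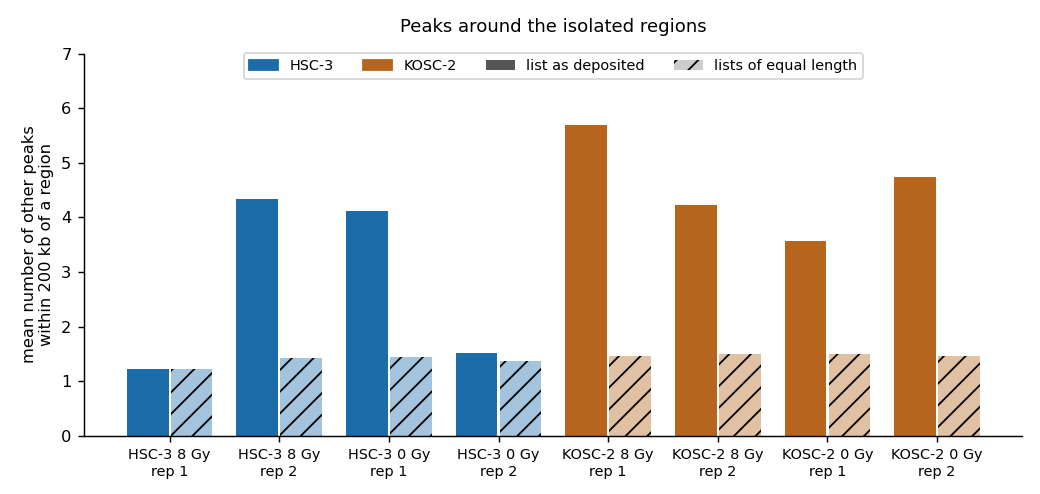
Mean number of other peaks within 200 kb of the 1075 isolated regions in each library, for the lists as deposited (solid bars) and for lists cut to 21955 peaks (hatched bars), with HSC-3 in blue and KOSC-2 in brown. The solid bars run between 1.23 and 5.70 and the hatched ones between 1.23 and 1.504.

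Only 8 isolated regions had no other peak of any library within 200 kb, and they were picked out after these counts were seen. The strongest by fold, chr13:104535418-104536292, held 23, 47, 48 and 23 summit reads in the HSC-3 libraries and 81, 72, 54 and 65 in the KOSC-2 libraries, at a mean fold percentile of 96.1 ± 4.29, and its 8 summits fell within 41 bp. The highest by summit reads was chr9:7799190-7800276 with a mean percentile of 69.0. A pair of them, chr4:104675907-104676501 and chr4:104917266-104918199, were next to each other, 240.8 kb apart. At the other extreme were chr22:50780730-50781977 with 139 other peaks around it summed over the 8 lists, chr12:125050818-125052704 with 134, chr11:61559431-61560830 with 132 and chr20:62526125-62526789 with 128.

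Whether isolated regions differed between the lines was asked with limma on the percentiles of all 12485 shared regions, 4 HSC-3 against 4 KOSC-2 libraries. By fold enrichment, 0 isolated regions passed a Benjamini-Hochberg adjusted p of 0.05, where 0% of all shared regions did. An unadjusted p under 0.05 was found in 205 (19.1%), against 13.9% of all shared regions. The median standard error of a difference was 11.3 percentile points. The lowest adjusted p, 0.130, belonged to chr5:15993030-15993960, whose fold was 10.4, 13.5, 15.0 and 13.3 in HSC-3, against 8.02, 5.08, 6.60 and 7.96 in KOSC-2. Its fold percentile was 76.0 ± 11.97 points (SE) higher in HSC-3, with all 4 HSC-3 libraries above all 4 KOSC-2 libraries. Next were chr5:169893845-169894386 with 58.9 ± 11.8 points and chr2:142314814-142315345 with 59.9 ± 12.8 points, both at an adjusted p of 0.147. Ranked by −log10 p, 179 isolated regions (16.7%) passed, where 13.3% of all shared regions did, 109 of them higher (background 7.38%) and 70 lower (background 5.9%) in HSC-3.

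By the number of reads at the summit, 300 isolated regions (27.9%) differed between the lines by limma, where 26.3% of all shared regions did. They divided into 154 that were higher in HSC-3 (14.3%, background 13.3%) and 146 that were lower (13.6%, background 13%), so the share called was close to that of shared regions in general. The median difference of the higher ones was 33.0 percentile points and that of the lower ones −31.1 points, with a median standard error of 7.67 points over all isolated regions. The summit-read percentiles of the lines did not overlap in 288 isolated regions (26.8%, background 26.7%), of which 242 were among the called ones. The count called depended on the libraries used. It fell when any single library but HSC-3 0 Gy replicate 1 was left out. It rose without that library and without the 3 libraries of lowest enrichment. The share called among all shared regions moved the same way in each of these fits. All 300 kept their sign in them, but they were picked for a clear difference with all 8 libraries, so this is no independent support.

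The clearest difference was again at chr5:15993030-15993960, 931 bp wide. Its summit held 56 and 77 reads in irradiated HSC-3 and 97 and 55 in unirradiated HSC-3, against 27 and 12 in irradiated KOSC-2 and 25 and 17 in unirradiated KOSC-2. In percentiles that is 94.4 ± 2.98 in HSC-3 and 5.25 ± 3.40 in KOSC-2 (SD, n = 4 each), a difference of 89.2 ± 8.18 points (SE) with an adjusted p of 0.00138 by limma. The reads at chr6:48078734-48079621 numbered 58, 66, 67 and 52 in HSC-3, against 17, 19, 30 and 15 in KOSC-2, and its percentile was 82.9 ± 8.70 points higher in HSC-3. At both regions every HSC-3 library held more reads than every KOSC-2 library, although the KOSC-2 libraries had the higher median summit reads.

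A second region of chromosome 5, chr5:6158971-6160222, held 78, 108, 75 and 47 summit reads in HSC-3, against 42, 19, 33 and 13 in KOSC-2, a difference of 81.7 ± 8.86 points. Another, chr5:3310649-3312048, was strong in both lines, with 89, 118, 104 and 59 reads in HSC-3, against 75, 55, 68 and 75 in KOSC-2. Its percentiles were 97.6 to 99.5 in HSC-3 and 58.2 to 76.5 in KOSC-2, a difference of 30.2 ± 3.13 points. Its fold percentile differed by −8.60 ± 13.1 points (SE), with an adjusted p of 0.798 by limma. The remaining regions named as higher in HSC-3 were chr19:31704919-31705492 with 73.4 ± 8.44 points and chr10:130427527-130428319 with 70.4 ± 8.38 points. All 6 had an adjusted p of 0.00138 by limma.

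Among the 6 regions named as lower in HSC-3, several ranked near the top in KOSC-2. At chr11:75525416-75526760 the summit held 29, 33, 49 and 20 reads in HSC-3, against 153, 139, 126 and 137 in KOSC-2, which placed it at a percentile of 48.7 ± 10.7 in HSC-3 and 98.7 ± 0.171 in KOSC-2 (SD, n = 4 each). The difference was −50.0 ± 5.94 points (SE). At chr6:41039571-41041220 the summit held 34, 50, 36 and 16 reads in HSC-3, against 149, 138, 106 and 131 in KOSC-2, a difference of −48.3 ± 5.14 points. Every KOSC-2 library exceeded every HSC-3 library at both. Similar gaps were found at chr11:68518581-68519339 (−50.5 ± 6.40 points) and chr4:3075505-3076591 (−34.3 ± 5.27 points). A further pair, chr6:44642063-44642726 (−49.9 ± 6.87 points) and chr6:45345107-45346345 (−66.2 ± 9.19 points), were weak in HSC-3 and of medium to high rank in KOSC-2. The highest adjusted p of these 6 was 0.00242.

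**Figure D4:**
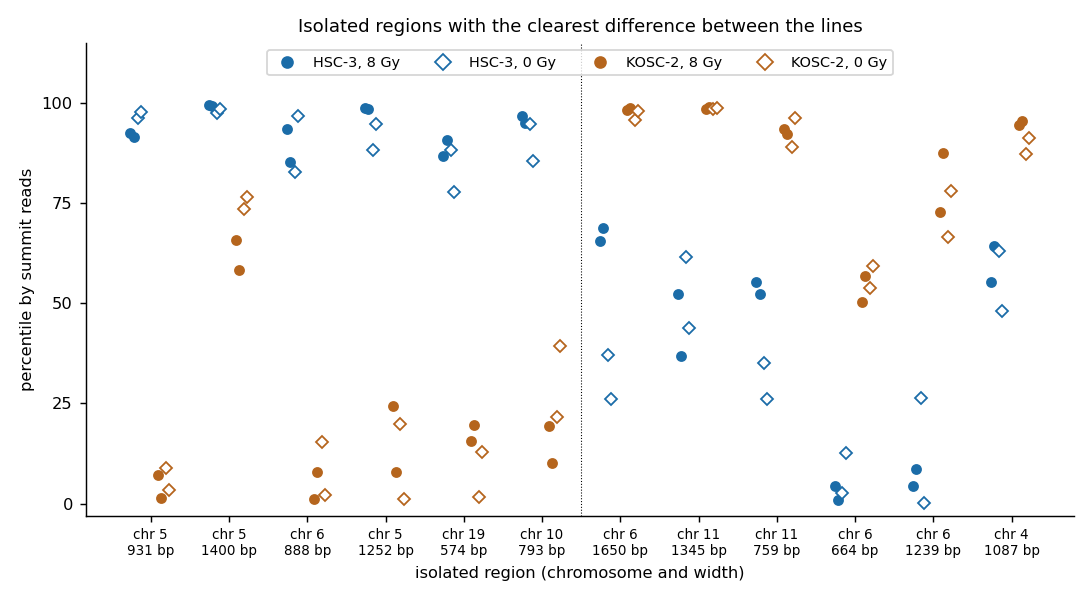
Summit-read percentile in each library of the 6 isolated regions with the lowest p among those higher in HSC-3 (left of the dotted line) and of the 6 among those lower in HSC-3 (right), labelled by chromosome and width. HSC-3 is blue and left, KOSC-2 brown and right, filled circles are 8 Gy and open diamonds 0 Gy. In all 12 the 4 HSC-3 and the 4 KOSC-2 libraries do not overlap.

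The reads of the 10 kb around the summit moved with the summit reads, which they include. In isolated regions the summit's own reads made up a median of 32.3% to 45.3% of the window per library. Agreement in direction is therefore partly built in. Of the 300 regions called, 175 (58.3%) also differed in the same direction by the rank of those background reads, 0 differed the other way, and 299 had the same sign. Among the 154 higher in HSC-3 the median difference by background rank was 21.9 points, and among the 146 lower ones it was −23.8 points. By background rank 223 isolated regions (20.7%) passed, where 19.6% of all shared regions did. Fold moved less, with medians of 21.5 and −15.9 points, and its sign was that of the summit reads in 145 of the 154 and 127 of the 146. How far the level of the surrounding DNA takes part in the summit-read difference was not tested.

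Direction depended on the chromosome, a pattern picked out after the values were seen. On chromosome 5, 26 isolated regions were called higher in HSC-3 by summit reads and 3 lower, and on chromosome 10 the counts were 13 and 0. On chromosome 18 they were 1 higher and 15 lower, on chromosome 16 they were 1 and 14, and on chromosome 7 they were 1 and 11. All shared regions of these chromosomes tilted the same way. On chromosome 5, 37.7% of the isolated regions were called higher and 4.35% lower, against 32.9% and 2.90% of all 862 shared regions, and on chromosome 10 it was 30.2% and 0%, against 24.1% and 1.34% of 748. On chromosome 18, 3.03% were higher and 45.5% lower, against 7.98% and 31.9% of 163. On chromosome 16 the shares were 2.94% and 41.2%, against 2.54% and 31.3% of 355, and on chromosome 7 they were 1.52% and 16.7%, against 3.43% and 19.5% of 642. The median difference over all isolated regions of a chromosome was 13.4 points on chromosome 5 and 11.2 on chromosome 14, against −21.1 on chromosome 18, −15.8 on chromosome 19 and −15.2 on chromosome 16. Background rank gave 11.2, 13.5, −23.3 and −14.9 points for chromosomes 5, 14, 18 and 16. By fold rank the medians were small, between −9.43 points on chromosome 15 and 5.76 points on chromosome 5.

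On some chromosomes the isolated regions departed from the rest of the chromosome. The 18 of chromosome 19 had a median of −15.8 points by summit reads, 12 of them below 0, whereas all 393 shared regions of that chromosome had a median of 6.07. Chromosome 22 gave −12.9 for its 15 isolated regions, 12 of them below 0, and 5.32 for all 187. The sign also differed on chromosomes 6 (−2.54 isolated, 3.50 all), 8 (−1.43 and 5.86), 11 (−0.785 and 1.18) and 12 (0.659 and −5.27). On chromosomes 14 and 18 the sign was the same but the isolated regions were further from 0. They had 11.2 and −21.1 points, against 2.77 and −9.04 for all shared regions. On chromosome 5 they did not depart, with 13.4 and 12.4 points. These medians rest on neighbouring regions that share their surroundings and carry no test.

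**Figure D5:**
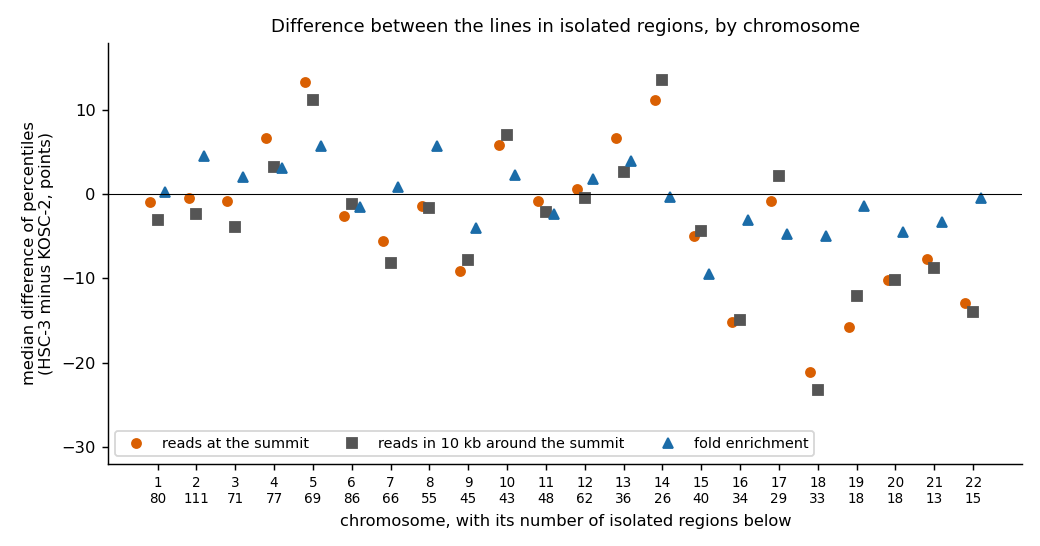
Median difference in percentile between the lines (HSC-3 minus KOSC-2) over the isolated regions of each chromosome, by summit reads (orange circles), by reads in the 10 kb around the summit (grey squares) and by fold enrichment (blue triangles). The number under each chromosome is its count of isolated regions. Circles and squares lie close together and reach −21.1 and −23.3 on chromosome 18, while the triangles stay between −9.43 and 5.76. The 10 kb includes the summit's own reads, so circles and squares are not independent.

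Direction could also change between neighbours. The row of 7 on chromosome 6 began with chr6:44642063-44642726 and chr6:45345107-45346345, where the differences were −49.9 and −66.2 points. The third member, chr6:46620322-46621241, and the fifth, chr6:47276964-47278005, were also lower, with differences of −37.3 ± 12.2 and −46.3 ± 9.97 points and adjusted p-values of 0.0429 and 0.00841 by limma. The sixth, chr6:48078734-48079621, was higher by 82.9 points, and the last, chr6:48794473-48795520, differed by 1.16 ± 2.93 points at percentiles of 86.9 in HSC-3 and 85.7 in KOSC-2. In the row on chromosome 18 all 7 differences were below 0, between −49.6 and −5.56 points, and 4 passed the test. In the row on chromosome 4, 4 passed and all 4 were higher in HSC-3, by 22.2 to 54.4 points.

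The position of the summit seldom differed between the lines. In 35 isolated regions (3.26%, background 3.76%) the summits of the 4 HSC-3 libraries and those of the 4 KOSC-2 libraries did not overlap. In 23 of them (2.14%, background 1.96%) the medians of the lines were more than 50 bp apart, and in 9 (0.837%, background 0.921%) more than 100 bp. Among these 9, which were singled out after their values were seen, 1 was strong in every library. At chr7:152160444-152161824 the summits lay 575, 572, 532 and 543 bp from the start of the region in HSC-3 and 691, 693, 662 and 701 bp from it in KOSC-2, a difference of −134.5 bp between the medians. Its summit-read percentile was 84.1 to 98.4 over the 8 libraries, so both positions rested on 35 reads or more. The other 8 had mean summit-read percentiles of 3.8 to 40.8.

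No change of isolated regions with radiation was detectable at 24 hours with 2 libraries per group. By limma on fold percentiles, 0 isolated regions passed an adjusted p of 0.05 for 8 Gy against 0 Gy over both lines, in HSC-3, in KOSC-2 or for the difference between the dose differences, and 0% of all shared regions did in each. At an unadjusted p under 0.05 there were 40 (3.72%, background 3.87%) over both lines, 53 (4.93%, background 4.41%) in HSC-3, 55 (5.12%, background 3.63%) in KOSC-2 and 46 (4.28%, background 3.54%) for the difference between lines. By summit reads and by −log10 p the adjusted count was also 0 in all 4. By summit reads an unadjusted p under 0.05 was found in 64 (5.95%, background 7.23%) over both lines and 77 (7.16%, background 8.05%) in HSC-3. It was found in 38 (3.53%, background 3.88%) in KOSC-2 and 42 (3.91%, background 4.11%) for the difference between lines. The median standard error by fold was 11.3 points over both lines, 15.9 points within a line and 22.6 points for the difference between lines. By summit reads it was 7.67, 10.8 and 15.3 points in the same order. The 5th and 95th percentiles of the fold difference over the isolated regions were −17.8 and 20.2 points for both lines together. Without HSC-3 0 Gy replicate 1, 3 isolated regions (0.279%) passed in HSC-3 by fold and 11 (1.023%) by summit reads, where 21 (0.168%) and 137 (1.10%) of all shared regions did.

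The region with the lowest p for dose was chr9:97488549-97489541. Its fold percentile was 90.7 and 96.3 in irradiated HSC-3 and 96.9 and 90.1 in irradiated KOSC-2, against 55.7 and 62.1 in unirradiated HSC-3 and 80.9 and 81.7 in unirradiated KOSC-2. All 4 irradiated libraries were above all 4 unirradiated ones. The difference was 23.4 ± 5.77 points (SE) with an adjusted p of 0.9995 by limma. Its summit reads, 31, 37, 97 and 63 in the irradiated libraries, against 30, 16, 54 and 71 in the unirradiated ones, overlapped. The next were chr10:92178594-92179345 with 45.7 ± 13.1 points and chr12:86020196-86020653 with 35.1 ± 10.7 points, both also at an adjusted p of 0.9995.

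Within HSC-3 the lowest p-values after chr9:97488549-97489541 belonged to chr2:132250121-132250718, with fold percentiles of 66.3 and 96.0 at 8 Gy, against 22.6 and 14.2 at 0 Gy, and to chr20:46438274-46438970, with 47.7 and 41.1 at 8 Gy, against 92.3 and 82.6 at 0 Gy. Within KOSC-2 the lowest was at chr14:48820141-48820623, with 92.7 and 91.4 at 8 Gy, against 40.7 and 63.4 at 0 Gy, followed by chr19:31704919-31705492 and chr2:157740283-157741074. For the difference between the lines, chr15:56757063-56757628 had the lowest p, with 66.3 and 67.0 at 8 Gy, against 95.7 and 88.3 at 0 Gy in HSC-3, and 94.7 and 99.8 at 8 Gy, against 81.0 and 87.1 at 0 Gy in KOSC-2. Next were chr14:98179245-98179808, with a difference of differences of 87.2 ± 24.98 points, and chr3:5430701-5431398, with −66.8 points. The adjusted p by limma was 1 for those in HSC-3, 0.9998 for those in KOSC-2 and 0.995 for the difference between lines.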

How the data were processed

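ATAC-seq peak lists of 8 libraries were used, 1 list per library. Build hg19 and the tools MACS2 2.2.6, SAMtools 1.9, Bowtie2 2.3.4.2, FastQC 0.11.7 and deepTools are listed, with no role for any, per the submitters' processing notes. No Tn5 shift, duplicate handling or blacklist filter is stated by these sources. The values the authors deposited per peak are a whole-number score, a fold enrichment (ratio), the −log10 p-value, the −log10 q-value and the summit offset. Read totals are not used here.

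The members and lists were chosen with earlier results of these data known. A region took the highest value of its peaks in each library. Summit reads (2 to 400 searched) and background were solved from fold and p, taking fold as (reads + 1) / (background + 1) and p as a Poisson tail. This gave whole reads for 100% of peaks within 0.0001 of −log10 p. The background was scaled from 300 bp fragments to 10 kb, and it includes the summit's own reads. Its lowest value per list, a measure of depth, was 42.6, 20.7, 27.0 and 20.2 reads per 10 kb in HSC-3 and 41.0, 24.3, 64.8 and 31.4 in KOSC-2 (8 Gy replicates 1 and 2, then 0 Gy).

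Percentiles over the 12485 regions were fitted with limma 3.58.1 (R 4.3.3) on 4 group means with a trended prior and 4 residual degrees of freedom, and adjusted by Benjamini-Hochberg over all 12485. Scripts ran in Python 3.11.15 and were tested on simulated data. Regions were named by fixed ranks: the 8 highest and 4 lowest by mean fold percentile, the 5 most remote, the 3 nearest each threshold on either side, the 4 with the largest and smallest SD and with the most and fewest peaks around, and the 6 called with the lowest p in each direction or, with fewer than 3 called, the 3 lowest. Members singled out beyond these are marked as such. Of the planned items, nearest genes, marker loci and sequences were not analysed here. The alternatives were other gaps, widths, overlaps, −log10 q limits, list lengths, rank scales, priors, a replicate term and single libraries left out. Ranking by summit reads or background, leaving out several libraries and leaving out members at chromosome ends were added after seeing the data.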

Additional observations from a re-analysis of the deposited data

Results flagged for a closer look

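The median peak width of the isolated regions was 787 bp in KOSC-2 8 Gy replicate 1, far from the other 3 KOSC-2 libraries, which had 672 to 684 bp. That library also has the longest list, with 50448 peaks, and its median width in the other shared regions was 829 bp. Of 38 sets of 4 values examined in this way this was the 1 value far from the rest, and chance alone gives about 1 in 20.

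Chromosome X lies outside the rule. Of its 342 regions with a peak in all 8 libraries, 77 (22.5%) meet the same limits of width and gap, a larger share than on any of the chromosomes 1 to 22, where the highest was 20.2%.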

How the results depend on the processing

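The number of isolated regions was 2802 with a gap of 100 kb, 189 with 500 kb, 649 with a width under 1000 bp and 704 without the 3 libraries of lowest enrichment, and it stayed within 1.5 times 1075 under the other alternatives. Their advantage over the other shared regions by fold rank was 14.3 points with a gap of 500 kb and turned to −2.40 points when ranked by −log10 p and to −9.91 points when ranked by summit reads. The deficit by summit reads was −6.88 points both with a gap of 100 kb and with lists of equal length. The median summit range was 100 bp at a −log10 q of at least 5, 95 bp with lists of equal length, 71 bp without the 3 libraries and 91 to 100 bp without a single library. Fewer libraries leave fewer summits to differ. Peaks around an isolated region averaged 1.96 in a window of 100 kb. With lists of equal length they averaged 2.05 around the regions chosen anew from the cut lists. Around the same 1075 regions the cut lists gave 1.23 to 1.504. For the line difference by fold, 0 isolated regions were called as planned, 25 with normal scores (18 higher, 7 lower, which is 2.33% of the isolated regions, where 118 or 0.945% of all shared regions passed), 179 by −log10 p, 300 by summit reads and 0 to 1 without a single library. For the dose difference by fold, 0 to 3 were called in HSC-3 and 0 to 1 in KOSC-2 without a single library. By summit reads the line difference gave 138 to 336 calls and the dose difference in HSC-3 0 to 11 without a single library, and the dose difference in HSC-3 gave 1 without the 3 libraries. By summit reads the number called among all shared regions rose or fell in the same fits, for the line difference and for the dose difference in HSC-3. These swings were therefore not particular to isolated regions. The cause of these and the other changes was not tested. Where a group is left with 1 library, it is assumed to vary like the others.

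Whether replicate numbers pair the libraries cannot be told from 2 libraries per group. Deviations of same-numbered libraries correlated between −0.151 and 0.318 by fold and between −0.0983 and 0.183 by summit reads. With replicate number as a block, 0 isolated regions were called by fold in all 5 comparisons. By summit reads 284 of the 1075 were called for the line difference, 282 of them among the 300. In the same fit 3127 of all 12485 shared regions were called. No region named for a test changed the sign of its difference under the alternatives run for that test in its own measure, but signs can differ between measures, as at chr5:3310649-3312048 with 30.2 points by summit reads and −8.60 by fold. Low read counts and short lists limit what could be seen. Summits in isolated regions held as few as 6 reads, and a region absent from a short list cannot count as shared. List length did not simply follow the lowest background, the measure of depth. In HSC-3 that was 42.6 and 20.2 reads per 10 kb in the short lists of 21955 and 22860 peaks, and 20.7 in a list of 41874.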

Other observations

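The isolated regions whose fold rank varied most over the 8 libraries were chr5:15993030-15993960 (SD 41.4 points), chr2:205889701-205890289 (37.5), chr5:17882861-17883682 (37.0) and chr2:147631808-147632340 (36.9). At chr2:205889701-205890289 the summit held 15, 12, 42 and 8 reads in HSC-3, against 45, 45, 33 and 47 in KOSC-2. In raw reads a single HSC-3 library, 0 Gy replicate 1, was thus at the level of KOSC-2. At chr5:17882861-17883682 it held 21, 48, 64 and 33 reads in HSC-3, against 23, 10, 24 and 12 in KOSC-2. The 21 reads of HSC-3 8 Gy replicate 1 lay within the KOSC-2 range as raw counts, which are not adjusted for depth. The median summit of an isolated region held 25 reads in that library, against 43 to 54 in the KOSC-2 libraries. By summit-read percentile the region was 60.1 points higher in HSC-3. The 4 with the smallest SD, 0.66 to 1.13 points, were all among the 5 sharpest regions.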
